A study of Mus musculus with 16 samples.

Results

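The transcripts described here belong to 41 genes of tumor necrosis factor (TNF) and NF-kB signaling, of 24421 symbols in the deposited counts. The genes were chosen by symbol from knowledge of the pathway, with earlier results of these data known. All 41 passed the filter on low counts in every comparison. The series holds QuantSeq 3′ mRNA sequencing of 2 subsets of myeloid-derived suppressor cells, monocytic (M-MDSCs) and granulocytic (G-MDSCs), sorted from the spleens of mice bearing a B16.F10 melanoma. Each subset was taken from 4 wild type (WT) C57BL/6 mice and from 4 Nlrp3-/- mice, 16 libraries in all, with an M-MDSC and a G-MDSC library for each spleen code in the sample descriptions, taken here as 1 mouse. B16.F10 is a mouse melanoma line, and all mice, controls included, had received it under the skin of the back and no drug is given for these samples. The study's mice were 6 to 12 weeks old unless stated otherwise, and the day of the sort is not given for these samples. The Nlrp3-/- line carries an EGFP cassette with its own poly(A) signal in exon 2 on a C57BL/6 background. The loss is in the whole animal and not in the sorted cells alone.

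TNF binds 2 receptors. The one with a death domain (Tnfrsf1a) recruits the adaptor Tradd, Traf proteins, the kinase Ripk1 and the ubiquitin ligases cIAP1 and cIAP2 (Birc2 and Birc3). Interleukin-1 and Toll-like receptors act through Irak kinases and Traf6. Both routes meet at the kinase Tak1 (Map3k7) and the IKK complex, which marks IkB proteins for degradation and so frees NF-kB dimers to enter the nucleus. NF-kB then drives the transcription of its own inhibitors, among them Nfkbia and Tnfaip3 (A20), and of inflammatory genes, and in myeloid cells it provides the priming signal for the Nlrp3 inflammasome. The question posed by the design is how these genes differ between WT and Nlrp3-/- cells within a subset and between the subsets within a genotype.

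Promoter sequence is shown for genes with a match to the kB consensus, the 10-letter DNA motif that NF-kB dimers bind. Only genes given in every library under the rule for names, stated at the end, were printed. Windows ran from 250 bases before to 50 bases after each transcript start in RefSeq (build GRCm38.p6) and were searched on both strands. Of the 41 genes 34 had a window, and 12 of these (35.3%) held at least 1 match, against 5.14% of 27025 genes with a window. A match is a description of the letters and not a measured site. The 5 windows printed are those of Rel (chr11:23770920-23771219, minus strand), Nfkbia (chr12:55492598-55492897, minus strand), Nfkbid (chr7:30422156-30422455, plus strand; the window of the second of its 3 starts), Bcl3 (chr7:19822706-19823005, minus strand) and Ier3 (chr17:35821463-35821762, plus strand). Capitals mark the matches, overlapping ones merged.
Rel: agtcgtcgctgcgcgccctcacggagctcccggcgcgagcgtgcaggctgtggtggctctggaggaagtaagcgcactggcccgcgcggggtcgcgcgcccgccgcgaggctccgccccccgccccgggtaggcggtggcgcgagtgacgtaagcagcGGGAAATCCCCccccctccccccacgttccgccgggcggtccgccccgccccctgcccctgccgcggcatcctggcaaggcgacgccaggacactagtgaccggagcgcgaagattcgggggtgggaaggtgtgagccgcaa
Nfkbia: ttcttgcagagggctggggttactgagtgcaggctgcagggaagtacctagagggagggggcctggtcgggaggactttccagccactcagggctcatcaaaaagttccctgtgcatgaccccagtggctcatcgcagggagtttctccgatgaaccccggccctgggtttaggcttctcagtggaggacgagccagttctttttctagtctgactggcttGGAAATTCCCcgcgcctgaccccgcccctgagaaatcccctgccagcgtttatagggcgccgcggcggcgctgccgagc
Nfkbid: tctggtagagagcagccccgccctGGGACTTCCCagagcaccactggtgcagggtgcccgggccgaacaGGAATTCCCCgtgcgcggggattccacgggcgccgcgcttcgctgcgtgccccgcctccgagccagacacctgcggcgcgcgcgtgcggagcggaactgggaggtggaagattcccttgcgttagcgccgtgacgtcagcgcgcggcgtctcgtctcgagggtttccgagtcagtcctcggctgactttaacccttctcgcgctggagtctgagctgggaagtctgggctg
Bcl3: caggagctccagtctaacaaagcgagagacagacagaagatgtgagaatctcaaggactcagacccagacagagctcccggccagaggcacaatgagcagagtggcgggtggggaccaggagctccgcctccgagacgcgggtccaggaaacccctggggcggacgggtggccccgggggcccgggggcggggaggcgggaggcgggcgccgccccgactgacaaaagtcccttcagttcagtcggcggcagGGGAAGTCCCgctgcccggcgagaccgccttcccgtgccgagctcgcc
Ier3: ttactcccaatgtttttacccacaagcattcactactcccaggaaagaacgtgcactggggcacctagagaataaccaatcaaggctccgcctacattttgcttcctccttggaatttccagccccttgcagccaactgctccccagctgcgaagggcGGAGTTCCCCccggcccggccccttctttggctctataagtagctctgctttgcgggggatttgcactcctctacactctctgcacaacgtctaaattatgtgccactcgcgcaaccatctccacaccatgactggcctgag

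The match in Rel began 92 bases before the start, that in Nfkbia 29 bases before it, those in Nfkbid 226 and 181 bases before it and that in Ier3 92 bases before it. In Bcl3 it began at base 3 of the transcript. The windows of Rela, Nfkbib, Tnfrsf1a, Birc2, Cflar, Irak3, Ikbkg and Tnfaip2, which are also described library by library below, held no match to these letters. Nfkbiz and Ikbkb, given per library too, had no window. Tnfaip3, given per library outside that rule, held a match in 1 of its 2 windows and is not printed.

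Libraries held 2295967 to 6079866 counts, and 3 counts, taken as the smallest amount shown, were worth 0.349 to 1.17 CPM, the count scaled to a common library total. Levels are given as CPM scaled by TMM factors over all 16 libraries, and fold changes as log2 from edgeR fits of the groups compared, ± the standard error. A gene was called when its Benjamini-Hochberg adjusted p was under 0.05 and its change above 1.5-fold. Nlrp3 itself had 219 to 632 counts in WT and 4 to 11 in Nlrp3-/- M-MDSCs, and 744 to 1365 against 21 to 59 in G-MDSCs, which matched the labels. Summed over 7 monocyte markers the M-MDSC libraries held 5160 to 8510 CPM and the G-MDSC libraries 633 to 1230, while 7 neutrophil markers gave 1140 to 6620 CPM in M-MDSCs and 109000 to 169000 in G-MDSCs. Ly6g, which the sort used, was not analysed here. WT M-MDSC replicate 2 stood apart, with 6620 CPM of neutrophil markers against 1140 to 1500 in the other WT M-MDSCs. As these are bulk samples, fewer cells of a type and less RNA per cell cannot be told apart.

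Averaged over the 41 genes, log2 CPM was 5.99 ± 0.18 (SD, n = 4) for WT M-MDSCs, 5.88 ± 0.08 for Nlrp3-/- M-MDSCs, 6.13 ± 0.06 for WT G-MDSCs and 6.26 ± 0.08 for Nlrp3-/- G-MDSCs. The mean over all 10696 genes kept lay between 4.16 and 4.23 in the 4 groups. Group means of the 41 genes ran from Ripk2 at 1.90 ± 1.45 CPM in WT G-MDSCs to Nfkbia at 4708 ± 619 CPM in Nlrp3-/- G-MDSCs, on a scale not divided by length. Nfkbia, the IkBalpha inhibitor, was the gene with the most CPM in each of the 4 groups, followed in G-MDSCs by Tnfaip2, at 2806 ± 563 in WT.

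**Figure D1:**
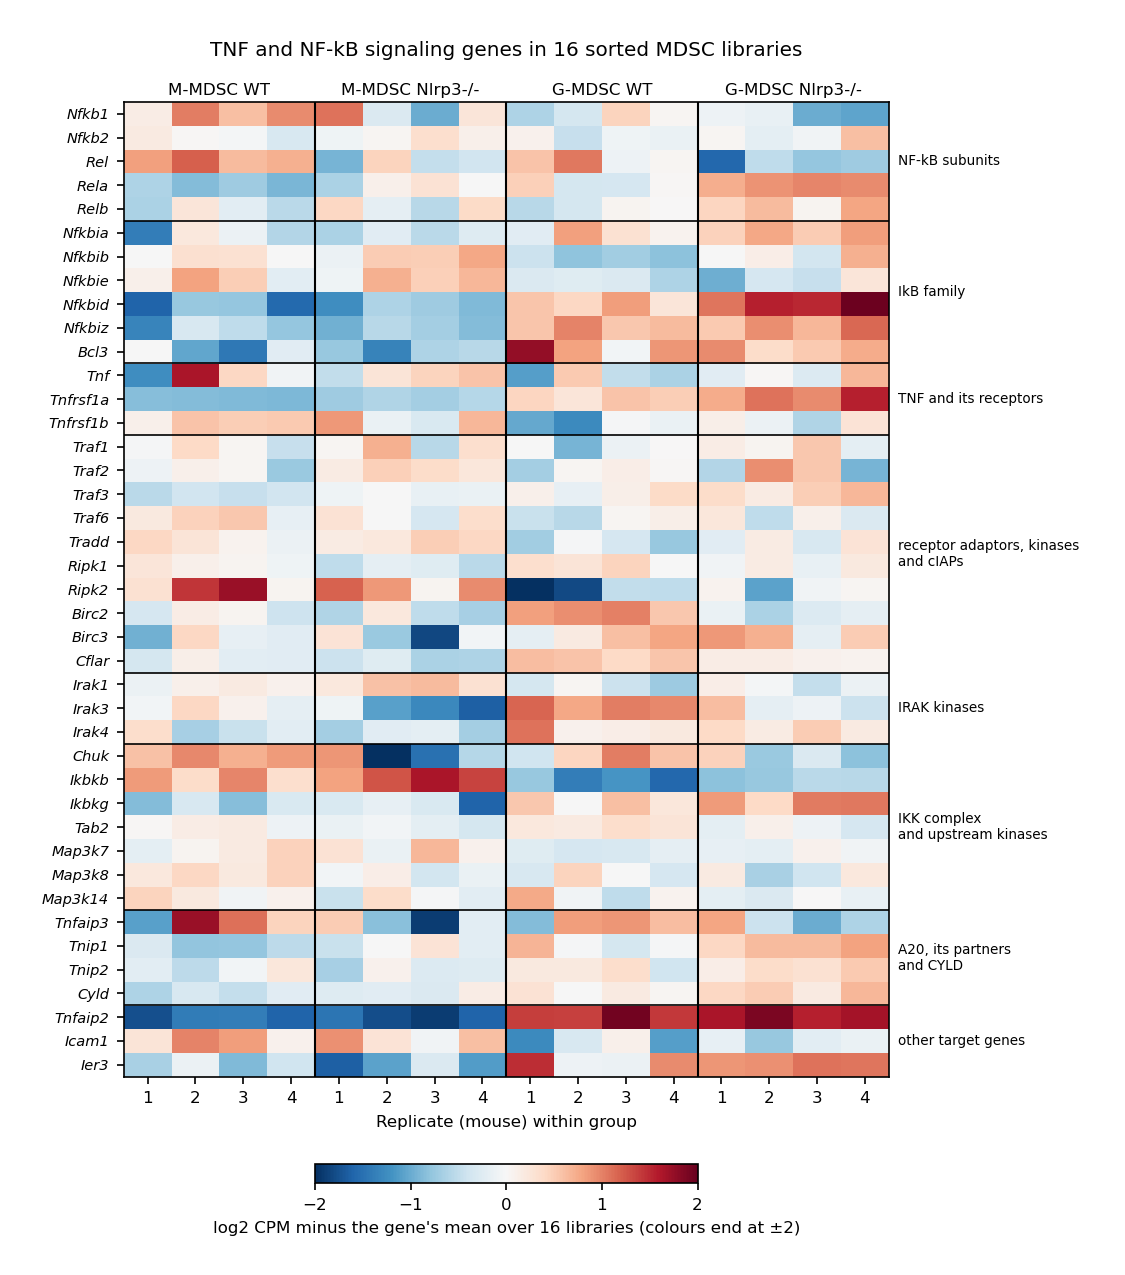
Log2 CPM of the 41 genes in the 16 libraries, each gene centred on its own mean over all libraries and grouped by role; columns are replicates 1 to 4 of each group. Tnfaip2, Nfkbid, Nfkbiz and Tnfrsf1a are red in G-MDSCs and blue in M-MDSCs, and Rel is mostly redder in WT than in Nlrp3-/- columns.

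In the first comparison, Nlrp3-/- M-MDSCs were set against WT M-MDSCs. Transcripts of 2 NF-kB subunits differed in opposite directions: Rel, which encodes c-Rel, was 2.14-fold lower in Nlrp3-/- cells, and Rela, which encodes p65, was higher. In Nlrp3-/- against WT G-MDSCs the same 2 genes were called in the same directions, with the inhibitors Nfkbib and Nfkbid higher. The ubiquitin ligase Birc2 and Irak3, an inhibitor of Toll-like receptor signaling, were called lower there. Thus 2 of 41 genes were called in M-MDSCs (1 higher, 1 lower) and 6 of 41 in G-MDSCs (3 higher, 3 lower). Over all genes tested 10.6% were called in M-MDSCs (3.51% higher and 7.10% lower) and 16.4% in G-MDSCs (4.70% higher and 11.7% lower). Of the 41 genes these were 4.88% in M-MDSCs and 14.6% in G-MDSCs, and without Nlrp3-/- replicate 1 the M-MDSC shares were 19.5% of the 41 genes and 17.6% of all genes. Their median log2 fold change was -0.08 in M-MDSCs and 0.14 in G-MDSCs, beside 0.07 and 0.03 over all genes tested.

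**Figure D2:**
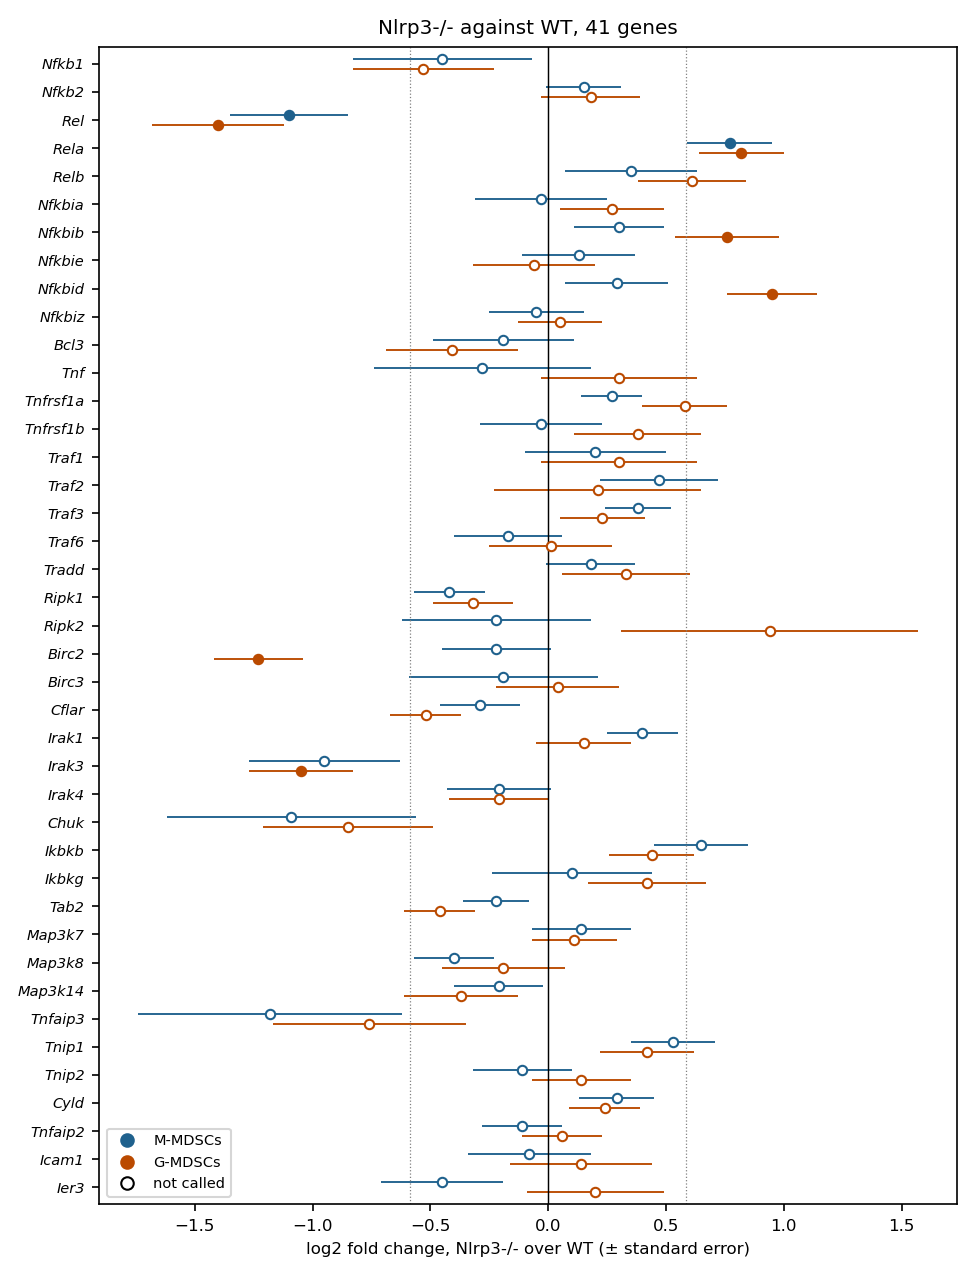
Log2 fold change of Nlrp3-/- over WT for the 41 genes in M-MDSCs (blue) and G-MDSCs (brown), with standard errors; filled points were called and dotted lines mark 1.5-fold. Rel lies to the left and Rela to the right in both subsets, at -1.10 and 0.77 in M-MDSCs and -1.40 and 0.82 in G-MDSCs.

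Rel (mm10 chr11:23736847-23770970, minus strand) encodes a transactivating subunit that lymphocytes and myeloid cells express. Its level was 118, 153, 104 and 110.0 CPM in WT M-MDSCs, replicates 1 to 4, and 34.9, 90.6, 47.6 and 51.3 CPM in Nlrp3-/- M-MDSCs. The groups did not overlap, and the log2 fold change was -1.10 ± 0.25, adjusted p = 0.0195. In G-MDSCs Rel was at 99.2, 139, 62.0 and 68.9 CPM in WT and at 22.2, 46.7, 39.0 and 40.6 CPM in Nlrp3-/- cells. All 4 Nlrp3-/- libraries again lay under all 4 WT libraries (-1.40 ± 0.28, adjusted p = 0.00414).

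Rela (mm10 chr19:5637483-5648130, plus strand) encodes the other main transactivating subunit, the usual partner of the p50 product of Nfkb1. It was measured at 128, 107, 119 and 104 CPM in WT M-MDSCs and at 126, 210.5, 238 and 194 CPM in Nlrp3-/- M-MDSCs. In Nlrp3-/- replicate 1 it lay within the WT range, and the other 3 replicates lay above every WT library (0.77 ± 0.18, adjusted p = 0.0221). The G-MDSC libraries held 272, 153, 156 and 198 CPM in WT and 324, 367, 385 and 375 CPM in Nlrp3-/- cells, without overlap (0.82 ± 0.18, adjusted p = 0.00787). The remaining subunits were not called in either subset. Nfkb1, the precursor of p50, was at -0.45 in M-MDSCs and -0.53 in G-MDSCs on the log2 scale, and Nfkb2, the precursor of p52, at 0.15 and 0.18. Relb, the partner of p52, was at 0.35 and 0.61, with adjusted p = 0.411 and 0.082.

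Among the 6 IkB family genes, 2 rose in Nlrp3-/- G-MDSCs and none was called in M-MDSCs. Nfkbid encodes IkBNS, a nuclear member of the family that tunes NF-kB at promoters. It was at 236, 215, 288 and 191 CPM in WT G-MDSCs and at 339, 474, 459 and 632 CPM in Nlrp3-/- G-MDSCs. Every Nlrp3-/- library was above every WT library (0.95 ± 0.19, adjusted p = 0.00439). M-MDSCs held 52.8, 95.3, 94.0 and 54.8 CPM of Nfkbid in WT and 68.3, 105, 98.4 and 87.6 CPM in Nlrp3-/- cells, and these ranges overlapped (0.29 ± 0.22, adjusted p = 0.409). Nfkbib encodes IkBbeta, a cytoplasmic inhibitor. WT G-MDSCs had 62.4, 48.1, 52.1 and 47.5 CPM of Nfkbib and Nlrp3-/- G-MDSCs 83.4, 92.6, 65.5 and 137 CPM, again without overlap (0.76 ± 0.22, adjusted p = 0.0267). Its M-MDSC values overlapped, at 84.2, 106, 104 and 83.6 CPM in WT and 77.7, 119, 118 and 144 CPM in Nlrp3-/- cells. The other IkB genes lay close to 0 on the log2 scale or had wide errors: Nfkbia at -0.03 ± 0.28 in M-MDSCs and 0.27 ± 0.22 in G-MDSCs, Nfkbiz (IkBzeta) at -0.05 ± 0.20 and 0.05 ± 0.18, Nfkbie (IkBepsilon) at 0.13 ± 0.24 and -0.06 ± 0.26, and Bcl3 at -0.19 ± 0.30 and -0.41 ± 0.28.

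TNF and its receptors were not called in either subset. Tnf spanned 19.3 to 144 CPM in WT and 32.9 to 68.9 CPM in Nlrp3-/- M-MDSCs, and 21.4 to 67.0 and 38.1 to 74.0 CPM in G-MDSCs, so that the genotypes overlapped. Tnfrsf1a, the receptor with a death domain, was at 647, 569, 714 and 673 CPM in WT and 800.0, 1017, 922 and 1401 CPM in Nlrp3-/- G-MDSCs. These groups did not overlap, and the gene passed the adjusted p but stayed under 1.5-fold (0.58 ± 0.18, adjusted p = 0.0371). In M-MDSCs Tnfrsf1a was at 266, 261, 259 and 256 CPM in WT and 293, 316, 299 and 324 CPM in Nlrp3-/- cells, again without overlap (0.27 ± 0.13, adjusted p = 0.19). Tnfrsf1b, the receptor without a death domain, was at -0.03 in M-MDSCs and 0.38 in G-MDSCs on the log2 scale.

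Of the 10 receptor adaptors, kinases and cIAPs, only Birc2 was called, in G-MDSCs. Birc2 (mm10 chr9:7818227-7837064, minus strand) encodes cIAP1, which holds the noncanonical pathway in check by marking the kinase Nik (Map3k14) for degradation. It was at 66.1, 71.1, 75.4 and 54.1 CPM in WT and 34.0, 23.7, 30.5 and 32.8 CPM in Nlrp3-/- G-MDSCs, 2.35-fold lower without overlap (-1.23 ± 0.19, adjusted p = 0.000672). M-MDSCs held 29.4, 41.3, 38.7 and 27.8 CPM in WT and 24.2, 43.2, 26.1 and 23.2 CPM in Nlrp3-/- cells, and the groups overlapped (-0.22 ± 0.23, adjusted p = 0.555). Birc3, the neighbouring gene on chromosome 9, encodes cIAP2 and was at -0.19 ± 0.40 in M-MDSCs and 0.04 ± 0.26 in G-MDSCs. Cflar, the caspase-8 inhibitor cFLIP, passed the adjusted p but stayed under 1.5-fold in G-MDSCs, at 120.5, 117, 104 and 116 CPM in WT and 86.6, 86.9, 82.9 and 82.3 CPM in Nlrp3-/- cells (-0.52 ± 0.15, adjusted p = 0.0256). In M-MDSCs its range was 60.9 to 84.7 CPM in WT and 50.1 to 66.4 CPM in Nlrp3-/- cells (-0.29 ± 0.17, adjusted p = 0.267). The other 7 genes, Traf1, Traf2, Traf3, Traf6, Tradd, Ripk1 and Ripk2, had adjusted p of 0.0844 or more in M-MDSCs and 0.211 or more in G-MDSCs. Ripk1, the kinase at the receptor, was the one closest to a call, at -0.42 ± 0.15 and -0.32 ± 0.17.

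Irak3 (mm10 chr10:120141648-120202130, minus strand) encodes IRAK-M, an inhibitor of Toll-like receptor signaling that is known mainly from monocytes and macrophages. It was at 87.5, 66.7, 79.7 and 75.9 CPM in WT G-MDSCs and at 59.8, 34.1, 36.0 and 28.6 CPM in Nlrp3-/- G-MDSCs. All Nlrp3-/- libraries lay under all WT libraries (-1.05 ± 0.22, adjusted p = 0.00585). In M-MDSCs the values were 37.5, 51.6, 41.4 and 34.3 CPM in WT and 36.6, 18.1, 15.7 and 12.2 CPM in Nlrp3-/- cells. Replicate 1 of the Nlrp3-/- group lay within the WT range, the other 3 lay below it, and the gene missed the threshold (-0.95 ± 0.32, adjusted p = 0.0735). The activating kinases Irak1 and Irak4 were not called, at 0.40 and -0.21 in M-MDSCs and 0.15 and -0.21 in G-MDSCs.

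None of the 7 IKK complex and upstream kinases was called by genotype. Ikbkb, the catalytic subunit IKKbeta, was at 436, 313, 477 and 306 CPM in WT and 421, 581, 747 and 620.1 CPM in Nlrp3-/- M-MDSCs (0.65 ± 0.20, adjusted p = 0.0589). The same gene held 142, 92.4, 107 and 81.0 CPM in WT and 136, 142, 166 and 164 CPM in Nlrp3-/- G-MDSCs (0.44 ± 0.18, adjusted p = 0.0998). Chuk, the other catalytic subunit IKKalpha, was at -1.09 ± 0.53 in M-MDSCs, where replicate 1 of the Nlrp3-/- group held 26.6 CPM and the others 2.90 to 9.51, and at -0.85 ± 0.36 in G-MDSCs. Tab2, an adaptor of Tak1, passed the adjusted p in G-MDSCs below 1.5-fold (-0.46 ± 0.15, adjusted p = 0.0437). With Tnfrsf1a, Cflar and Tab2, 9 genes had an adjusted p under 0.05 in G-MDSCs, where 18.1% of all genes tested did.

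Tnfaip3, which encodes the ubiquitin-editing inhibitor A20, spread widely within groups. It was at 12.8, 92.7, 59.6 and 37.7 CPM in WT and 39.7, 15.3, 7.10 and 23.9 CPM in Nlrp3-/- M-MDSCs, and the log2 fold change of -1.18 ± 0.56 was not called (adjusted p = 0.177). Its partner Tnip1 was at 0.53 ± 0.18, adjusted p = 0.0735 in M-MDSCs and 0.42 ± 0.20, adjusted p = 0.161 in G-MDSCs, and Tnip2 at -0.11 and 0.14. Cyld, a deubiquitinase that opposes IKK activation, was at 0.29 ± 0.16 and 0.24 ± 0.15. The target genes Tnfaip2, Icam1 and Ier3 were between -0.45 and 0.20 in both subsets, with no call.

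**Figure D3:**
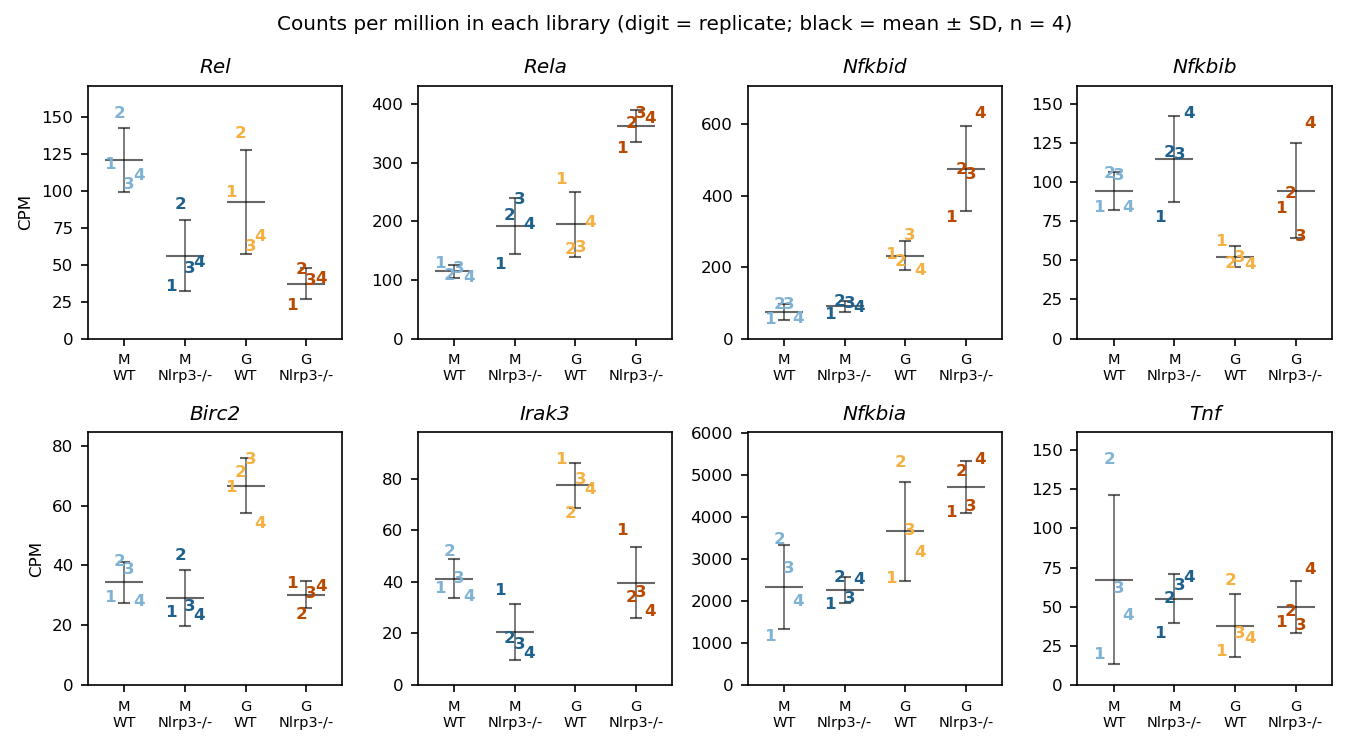
CPM of 8 genes in each library; the digit is the replicate, the black bar the mean and its whiskers the SD of 4 libraries, and each y axis starts at 0. Rel, Birc2 and Irak3 lie lower, and Rela, Nfkbid and Nfkbib higher, in Nlrp3-/- than in WT G-MDSCs without overlap, while Nfkbia and Tnf overlap.

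Counted by whether the 4 libraries of a genotype lay wholly above or below the 4 of the other, 7 of the 41 genes were apart in M-MDSCs: Rel, Ripk1 and Map3k8 were lower in Nlrp3-/- cells and Tnfrsf1a, Traf2, Traf3 and Irak1 higher. In G-MDSCs 9 genes were apart, with Rel, Birc2, Cflar, Irak3 and Tab2 lower and Rela, Nfkbib, Nfkbid and Tnfrsf1a higher. Over all genes tested 19.3% and 24.4% were apart in M-MDSCs and G-MDSCs.

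The M-MDSC calls depended on single libraries. Without WT replicate 2 or without Nlrp3-/- replicate 4 none of the 41 genes was called in M-MDSCs, since Rel then had an adjusted p of 0.0583 or 0.0717 and Rela of 0.0639 or 0.0867. Without Nlrp3-/- replicate 1, in which Nfkb1, Chuk, Tnfaip3 and Irak3 lay above the lowest WT library, 8 genes were called: Rel, Rela, Ikbkb and Tnip1, and Nfkb1, Irak3, Chuk and Tnfaip3, of which Chuk was at -2.10 and Irak3 at -1.45. Without WT replicate 3 or 4, or Nlrp3-/- replicate 2 or 3, only Rel was called, and without WT replicate 1 Tnip1 was added to Rel and Rela. In G-MDSCs Rel, Rela, Nfkbid, Birc2 and Irak3 were called whichever library was left out. Nfkbib lost its call without WT replicate 2 or 4 or Nlrp3-/- replicate 2 or 4.

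The genotype differences also went with base composition. The genes called lower in G-MDSCs had transcripts of 42.5% to 49.7% GC and those called higher 57.1% to 59.4%. Across the 41 genes Pearson's r between log2 fold change and GC content was 0.52 in both subsets, and across all genes tested 0.34 in M-MDSCs and 0.36 in G-MDSCs. These are descriptions across genes of the same libraries, not tests. When GC content and transcript length were fitted in each library and entered as offsets, 1 gene was called in M-MDSCs, where 6.69% of all genes were, and 4 in G-MDSCs, where 10.4% were. The lower share of all calls moved from 66.9% to 56.1% and from 71.4% to 57.5%. Birc2 (-0.92, adjusted p = 0.00896) and Irak3 (-1.04, adjusted p = 0.00949) stayed called in G-MDSCs. Rel was no longer called (-0.66, adjusted p = 0.11 in M-MDSCs and -0.81, adjusted p = 0.0682 in G-MDSCs), nor was Rela (0.45, adjusted p = 0.117 and 0.51, adjusted p = 0.0742). Nfkbid (0.60, adjusted p = 0.0583) and Nfkbib (0.40, adjusted p = 0.255) also missed the threshold. Cyld, at 43.5% GC, was called higher in both subsets under the correction (0.74, adjusted p = 0.0237 in M-MDSCs and 0.82, adjusted p = 0.00725 in G-MDSCs), as was Ikbkg, the IKKgamma scaffold, in G-MDSCs (0.91, adjusted p = 0.0339).

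**Figure D4:**
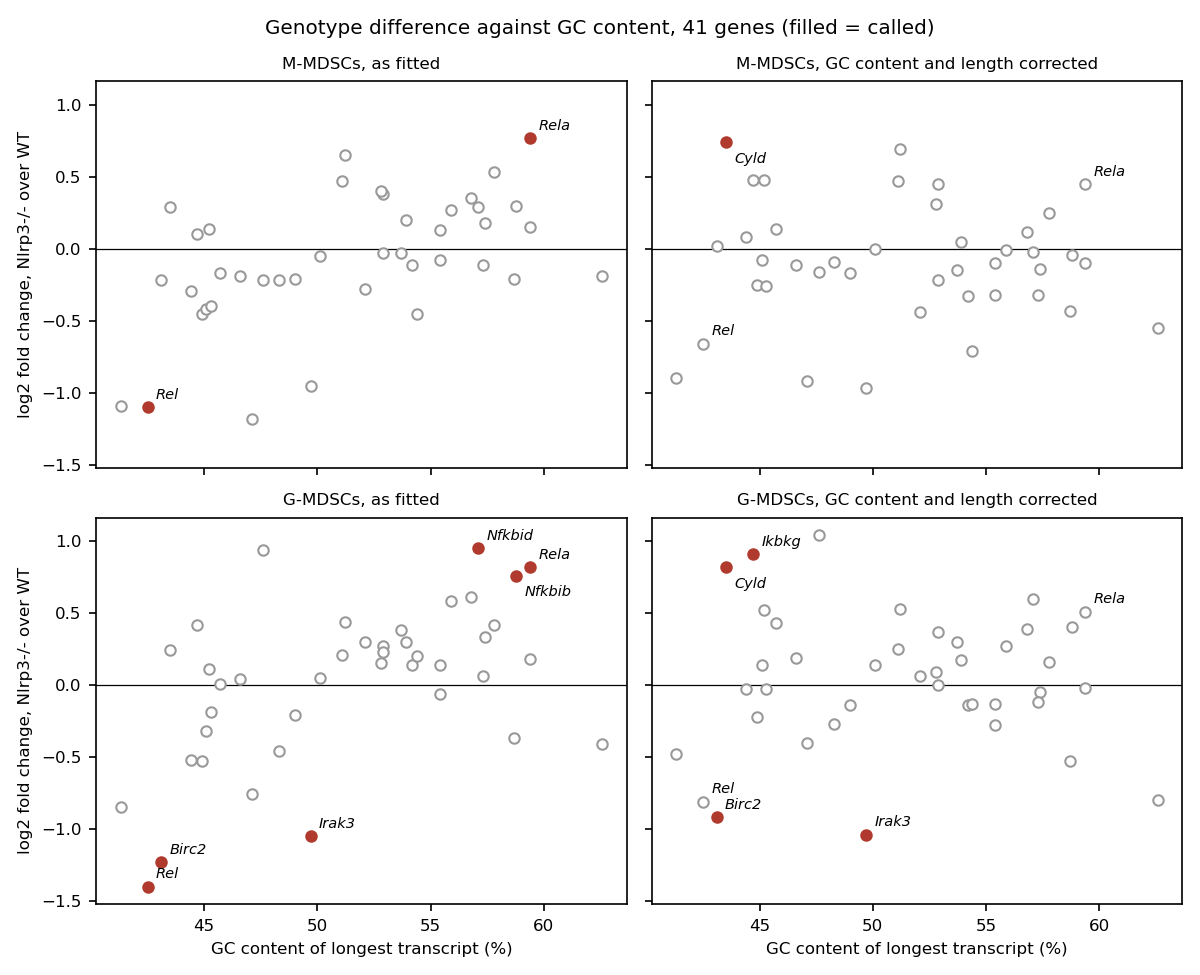
Log2 fold change of Nlrp3-/- over WT against the GC content of the longest transcript for the 41 genes, as fitted (left) and with GC content and length corrected (right), in M-MDSCs (top) and G-MDSCs (bottom); filled points were called. Before correction the called genes under 0 lie between 42.5% and 49.7% GC and those above 0 between 57.1% and 59.4%.

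Summed markers of some other cell types did not overlap between genotypes either. Summed over 14 dendritic cell and macrophage markers, all with a row in the files, M-MDSCs held 1080 to 1440 CPM in WT and 1630 to 2450 in Nlrp3-/- cells, and G-MDSCs 954 to 1470 and 1830 to 2760. The 5 NK cell markers summed to 29.1 to 69.3 CPM in WT and 91.7 to 135 in Nlrp3-/- M-MDSCs, and to 23.7 to 40.5 and 56.8 to 86.8 in G-MDSCs. In G-MDSCs the 7 monocyte markers summed to 633 to 943 CPM in WT and to 1020 to 1230 CPM in Nlrp3-/- cells. Within that sum Csf1r was at 495 ± 156 CPM in WT and 817 ± 87.2 CPM in Nlrp3-/- G-MDSCs, and Ly6c2 at 223 ± 41.2 and 266 ± 31.5 CPM. Ccr2 went the other way, at 8.53 ± 3.77 and 6.26 ± 1.91 CPM. Each of these sums was apart between genotypes, with an exact permutation p of 0.0286, the smallest that 4 against 4 allows, and 0.0981 adjusted over 24 tests. The 4 hemoglobin genes listed and the melanoma markers Mlana, Tyrp1 and Tyr were at 0 in all libraries of these groups. The part of the marker differences in the values of Rel, Rela, Nfkbid, Nfkbib, Birc2 and Irak3 was not tested.

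Scaling by library size alone changed the balance of calls. It moved the median of all genes from 0.07 to 0.17 in M-MDSCs and from 0.03 to 0.16 in G-MDSCs, and the share of calls that were lower from 66.9% to 45.4% and from 71.4% to 51.9%. Under it 4 of the 41 genes were called in M-MDSCs (3 higher, 1 lower) and 8 in G-MDSCs (5 higher, 3 lower). A model of all 16 samples moved the lower share in G-MDSCs to 56.6%, with 4 of the 41 genes called higher and 3 lower. With replicate numbers as a block the lower share in M-MDSCs was 84.2%. Rel and Rela kept their directions and calls under the first 2 of these settings in both subsets.

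Whether the genotype difference itself differed between the subsets was tested across all 16 libraries. None of the 41 genes was called by edgeR's quasi-likelihood test, where 0.0280% of all genes were, and 0 were called by DESeq2. With the mouse as a block 0 of the 41 genes were called too, where 0.0374% of all genes were, and 5 had an unadjusted p under 0.05. In the edgeR test without the block 2 genes had an unadjusted p under 0.05, Birc2 and Nfkbid. The Birc2 genotype difference was lower in G-MDSCs than in M-MDSCs by -0.90 ± 0.31 on the log2 scale, adjusted p = 0.97, and the Nfkbid difference higher by 0.76 ± 0.32, adjusted p = 0.992. For Rel the difference between the subsets was -0.20 ± 0.41, for Rela 0.15 ± 0.28 and for Irak3 0.03 ± 0.39. A call in 1 subset alone is therefore not shown to be particular to it.

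More of the 41 genes were called between the subsets than between the genotypes. In G-MDSCs against M-MDSCs of WT mice 20 of the 41 genes were called, 12 higher and 8 lower, and in Nlrp3-/- mice 16, 11 higher and 5 lower. G-MDSCs held more of the target gene Tnfaip2, of TNF receptor 1 (Tnfrsf1a) and of the nuclear IkB genes Nfkbid, Nfkbiz and Bcl3, and less of IKKbeta (Ikbkb), of the cytoplasmic inhibitor Nfkbie and of the adhesion molecule Icam1. Over all genes tested 53.3% were called in WT (26.3% higher, 27.1% lower) and 51.0% in Nlrp3-/- mice (23.7% higher, 27.4% lower). Of the 41 genes these were 48.8% in WT and 39.0% in Nlrp3-/- mice, and with the mouse as a block 58.5% and 48.8%, beside 55.9% and 53.6% of all genes. Their median log2 fold change was 0.06 in WT and -0.03 in Nlrp3-/- mice, beside -0.05 and -0.12 over all genes tested. Scaled by library size alone, the median of all genes moved to -0.79 and -0.83, the lower share of all calls from 50.8% to 81.3% and from 53.6% to 81.5%, and the 41 genes gave 3 higher and 19 lower calls in WT and 6 and 19 in Nlrp3-/- mice. Tnfaip2, Nfkbid, Nfkbiz and Ikbkb kept call and direction under that scaling in both genotypes. Rela, Ikbkg and Tnip1 lost their calls under it in both. Bcl3, Tnfrsf1a, Birc2, Cflar, Irak3 and Ier3 lost theirs in WT, and Nfkbia and Irak4 in Nlrp3-/- mice.

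**Figure D5:**
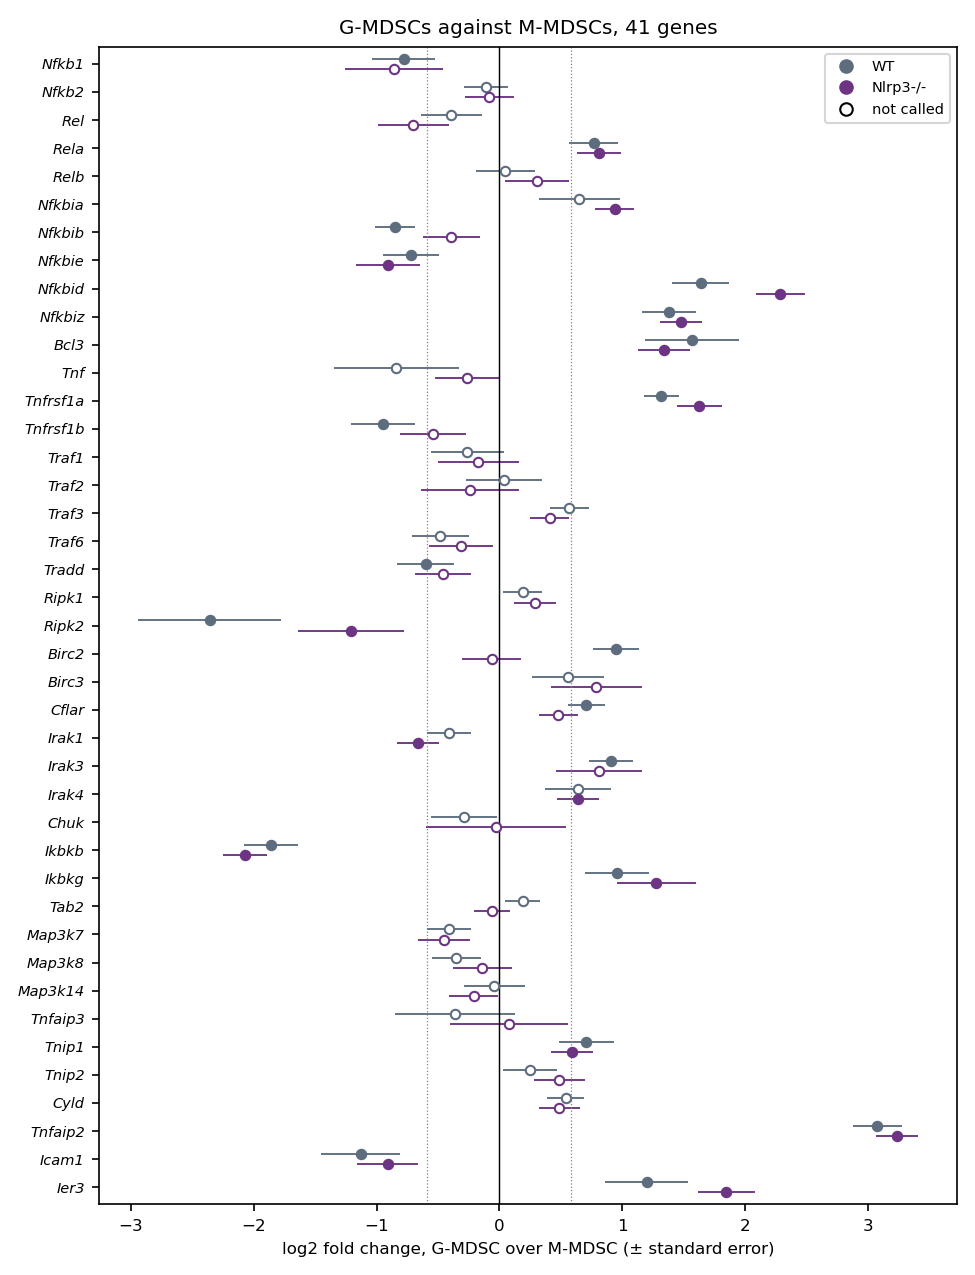
Log2 fold change of G-MDSCs over M-MDSCs for the 41 genes in WT (grey) and Nlrp3-/- mice (purple), with standard errors; filled points were called and dotted lines mark 1.5-fold. Tnfaip2 lies farthest to the right, at 3.08 and 3.24, and Ikbkb at -1.86 and -2.07.

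Among the NF-kB subunits, Rela was higher in G-MDSCs of both genotypes (0.77 ± 0.20, adjusted p = 0.00546 in WT and 0.81 ± 0.18, adjusted p = 0.00163 in Nlrp3-/- mice), with the per-library values given above and no overlap. Nfkb1 was lower in G-MDSCs of WT mice (-0.78 ± 0.26, adjusted p = 0.0222). In Nlrp3-/- mice Nfkb1 (-0.86 ± 0.40, adjusted p = 0.0843) and Rel (-0.70 ± 0.29, adjusted p = 0.0507) missed the threshold and were called lower with the mouse as a block (adjusted p = 0.0273 and 0.00443). Nfkb2 and Relb were not called.

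The IkB family split between its members. Nfkbid was 3.12-fold higher in G-MDSCs of WT mice and 4.9-fold higher in those of Nlrp3-/- mice, without overlap (1.64 ± 0.23, adjusted p = 7.91e-05 and 2.29 ± 0.20, adjusted p = 3.32e-07). Nfkbiz, which encodes the coactivator IkBzeta of secondary response genes, was at 189.9, 378, 333 and 276 CPM in WT M-MDSCs and 693, 940.2, 691 and 733 CPM in WT G-MDSCs. In Nlrp3-/- mice its values were 243, 322, 295 and 258 CPM in M-MDSCs and 679, 900.3, 747 and 1053 CPM in G-MDSCs. The subsets did not overlap in either genotype (1.38 ± 0.22, adjusted p = 0.000208 and 1.48 ± 0.17, adjusted p = 4.84e-06). Bcl3, which binds p50 and p52 homodimers, was at 73.8, 35.9, 27.1 and 63.4 CPM in M-MDSCs and 251, 130.0, 71.2 and 138 CPM in G-MDSCs of WT mice. Its Nlrp3-/- values were 43.5, 29.0, 48.5 and 50.6 CPM in M-MDSCs and 144, 95.5, 107 and 124 CPM in G-MDSCs. The ranges overlapped in WT and not in Nlrp3-/- mice (1.57 ± 0.38, adjusted p = 0.00407 and 1.34 ± 0.21, adjusted p = 0.000103). Nfkbia was at 1929, 2554, 2060 and 2502 CPM in M-MDSCs and 4118, 5094, 4247 and 5371 CPM in G-MDSCs of Nlrp3-/- mice (0.94 ± 0.16, adjusted p = 0.000181), a gap without overlap. In WT mice Nfkbia spread more, with 1149, 3475, 2766 and 1992 CPM in M-MDSCs and 2549, 5296, 3683 and 3145 CPM in G-MDSCs, and it was not called (0.65 ± 0.33, adjusted p = 0.112). With the mouse as a block it was (adjusted p = 0.00275), and each WT mouse had more Nfkbia in its G-MDSCs than in its M-MDSCs. Nfkbib and Nfkbie, which like Nfkbia encode cytoplasmic inhibitors, were not higher in G-MDSCs: Nfkbib was lower in WT G-MDSCs (-0.85 ± 0.16, adjusted p = 0.000889), at -0.39 and not called in Nlrp3-/- mice, and Nfkbie was lower in both (-0.72 ± 0.23, adjusted p = 0.0178 and -0.91 ± 0.26, adjusted p = 0.00877).

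The TNF receptors differed in opposite directions in WT mice. Tnfrsf1a was 2.5-fold higher in G-MDSCs of WT and 3.1-fold higher in those of Nlrp3-/- mice, with the libraries listed above apart in both (1.32 ± 0.14, adjusted p = 9.79e-06 and 1.63 ± 0.18, adjusted p = 2.99e-06). Tnfrsf1b was at 254, 352, 335 and 341 CPM in M-MDSCs and 116, 98.2, 233 and 216 CPM in G-MDSCs of WT mice, lower without overlap (-0.95 ± 0.26, adjusted p = 0.00855). Its ranges overlapped in Nlrp3-/- mice, at 193 to 434 and 157 to 288 CPM (-0.54 ± 0.27, adjusted p = 0.11). Tnf was not called in either genotype, and in WT mice it was called lower in G-MDSCs with the mouse as a block (-0.65 ± 0.20, adjusted p = 0.0138).

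Of the adaptors, kinases and cIAPs, Birc2 (0.95 ± 0.19, adjusted p = 0.000966) and Cflar (0.71 ± 0.15, adjusted p = 0.00198) were higher in WT G-MDSCs without overlap, though Cflar was at -0.04 when scaled by library size alone. Among Nlrp3-/- mice Birc2 was at -0.06 ± 0.24 and Cflar at 0.48 ± 0.16, under 1.5-fold. Tradd, the adaptor of TNF receptor 1, was lower in WT G-MDSCs (-0.60 ± 0.23, adjusted p = 0.0437). Ripk2, the kinase of the NOD receptors, was lower in both genotypes (-2.36 ± 0.58, adjusted p = 0.0042 and -1.21 ± 0.43, adjusted p = 0.0276), but rested on 1 to 13 counts per library in WT G-MDSCs against 14 to 93 in WT M-MDSCs, and on 8 to 21 against 23 to 94 in Nlrp3-/- mice. It lost its call in Nlrp3-/- mice without M-MDSC replicate 1, 2 or 4 or without G-MDSC replicate 2. Birc3 was called higher in G-MDSCs of both genotypes only with the mouse as a block (adjusted p = 0.0254 in WT and 0.000959 in Nlrp3-/- mice). Traf1, Traf2, Traf3, Traf6 and Ripk1 were not called.

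The IRAK kinases did not move together. Irak3 was called in WT (0.91 ± 0.18, adjusted p = 0.000861) without overlap. In Nlrp3-/- mice it missed the threshold (0.81 ± 0.35, adjusted p = 0.0602) and passed it with the mouse as a block (adjusted p = 0.00131). Irak4, the first kinase of the chain, was called in Nlrp3-/- mice (0.64 ± 0.17, adjusted p = 0.005), and in WT only with the mouse as a block (adjusted p = 0.00127), and was at -0.07 in Nlrp3-/- mice when scaled by library size alone. Irak1 was lower in G-MDSCs of Nlrp3-/- mice (-0.66 ± 0.17, adjusted p = 0.00536).

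Subunits of the IKK complex also went in opposite directions. Ikbkb was 3.62-fold lower in G-MDSCs of WT mice and 4.2-fold lower in those of Nlrp3-/- mice, and no G-MDSC library reached the lowest M-MDSC library of its genotype (-1.86 ± 0.22, adjusted p = 1.98e-05 and -2.07 ± 0.18, adjusted p = 2.94e-07). Ikbkg was at 7.06, 10.6, 7.14 and 10.6 CPM in M-MDSCs and 19.4, 13.2, 20.4 and 15.6 CPM in G-MDSCs of WT mice. Nlrp3-/- mice had 10.7, 11.8, 10.7 and 4.11 CPM in M-MDSCs and 24.3, 17.5, 27.8 and 28.1 CPM in G-MDSCs. It was higher in G-MDSCs without overlap in both genotypes (0.96 ± 0.26, adjusted p = 0.00722 and 1.28 ± 0.32, adjusted p = 0.00409), on 31 to 134 counts per library. Scaled by library size alone, Ikbkg was not called in either genotype. Chuk, Tab2, Map3k7, Map3k8 and Map3k14 were not called in either genotype.

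Tnip1 was the only one of A20, its partners and Cyld to be called, higher in G-MDSCs of WT (0.71 ± 0.22, adjusted p = 0.0161) and of Nlrp3-/- mice (0.59 ± 0.17, adjusted p = 0.00823), and it was at -0.04 and -0.13 when scaled by library size alone. Cyld passed the adjusted p in both genotypes below 1.5-fold (0.54 ± 0.15, adjusted p = 0.00925 and 0.49 ± 0.17, adjusted p = 0.0248).

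All 3 remaining target genes were called in both genotypes. Tnfaip2, a gene induced by TNF, was at 284, 363, 368 and 317 CPM in WT M-MDSCs and 2512, 2491, 3649 and 2574 CPM in WT G-MDSCs. Nlrp3-/- mice had it at 350.5, 282, 259 and 317 CPM in M-MDSCs and 2996, 3542, 2836 and 3047 CPM in G-MDSCs. It thus differed 8.43-fold and 9.46-fold, the widest gap among the 41 genes in both (3.08 ± 0.20, adjusted p = 2.02e-07 and 3.24 ± 0.17, adjusted p = 2.94e-09). Ier3, an early response gene that protects cells from TNF-induced death, was at 117, 170.2, 100.3 and 139.5 CPM in M-MDSCs and 516, 172, 170.1 and 356 CPM in G-MDSCs of WT mice, with G-MDSC replicate 3 just under the highest M-MDSC library (1.20 ± 0.34, adjusted p = 0.0089). Nlrp3-/- mice had 59.1, 87.7, 151 and 84.7 CPM in M-MDSCs and 342, 350.3, 394 and 389 CPM in G-MDSCs, without overlap (1.85 ± 0.23, adjusted p = 1.09e-05). Icam1, the ligand of leukocyte integrins, was lower in G-MDSCs of WT (-1.13 ± 0.32, adjusted p = 0.0091) and of Nlrp3-/- mice (-0.91 ± 0.25, adjusted p = 0.00743).

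Some subset calls rested on single libraries. In WT mice Rela and Nfkb1 lost their calls without G-MDSC replicate 1 (Rela at 0.57), Nfkb1 also without G-MDSC replicate 2, and Nfkbie without G-MDSC replicate 4. Tnip1 lost its WT call without G-MDSC replicate 1 or M-MDSC replicate 2 or 3, and Tradd without any library other than G-MDSC replicate 2 or M-MDSC replicate 4. In Nlrp3-/- mice Irak1 lost its call without G-MDSC replicate 3, Irak4 without M-MDSC replicate 1 or 4, and Tnip1 without either of these or G-MDSC replicate 4.

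Mice of 1 group differed from each other in several inducible genes. In WT M-MDSCs replicate 1 was the lowest and replicate 2 the highest for Nfkbia (1149 and 3475 CPM), for Tnf (19.3 and 144 CPM) and for Tnfaip3 (12.8 and 92.7 CPM). The G-MDSCs of the same mice were lowest and highest for Nfkbia (2549 and 5296 CPM) and Tnf (21.4 and 67.0 CPM), and for Tnfaip3 replicate 1 was again the lowest. Leaving out WT M-MDSC replicate 2 moved the genotype difference of Tnfaip3 in M-MDSCs from -1.18 to -0.69. The same mouse was highest in both subsets for 16 of the 41 genes in WT and 19 in Nlrp3-/- mice, where 36.2% and 36.6% of all 10696 genes showed this, and lowest in both for 18 and 21 (37.4% and 34.6% of all genes).

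Other genes of the pathway, in 3 lists, were compared by genotype in the same fits. Of 27 further TNF superfamily ligands and receptors, 17 were tested in M-MDSCs, where Tnfrsf4 (OX40) was called higher (1.35 ± 0.40, adjusted p = 0.0491), and 15 in G-MDSCs, where Fas was (0.81 ± 0.26, adjusted p = 0.041). Of 43 other signaling components, 1 was called higher and 5 lower in M-MDSCs, and of 40 tested 8 were lower and 0 higher in G-MDSCs. These are 14% and 20% of the list, near the 10.6% and 16.4% of all genes, of whose calls 66.9% and 71.4% were lower too. The TNF superfamily list had 5.88% and 6.67% called. Tax1bp1, an adaptor of A20, was lower in both (-0.72 ± 0.13, adjusted p = 0.00776 and -0.94 ± 0.15, adjusted p = 0.000914), as was Xiap, an inhibitor of apoptosis (-0.76 ± 0.18, adjusted p = 0.0224 and -1.08 ± 0.21, adjusted p = 0.00321). Pdlim2, a nuclear ubiquitin ligase for p65, was higher in M-MDSCs (0.81 ± 0.17, adjusted p = 0.0147), and Azi2, an adaptor of the IKK-related kinase Tbk1, was lower in G-MDSCs (-1.0 ± 0.20, adjusted p = 0.00338). Under the GC correction Azi2 (-0.69, adjusted p = 0.0312) stayed called, and Tax1bp1, Xiap, Pdlim2 and Tnfrsf4 did not, and Fas (0.95, adjusted p = 0.0211) stayed called.

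Of 40 other NF-kB target genes, 3 of 32 tested were called higher in M-MDSCs and none lower, and in G-MDSCs 9 of 31 were higher and 1 lower, 32.3% called, beside 16.4% of all genes tested (4.70% higher and 11.7% lower). In M-MDSCs 9.38% of the list was called, beside 10.6% of all genes. Vcam1, the vascular cell adhesion molecule that macrophages also express, was higher in both subsets (1.93 ± 0.31, adjusted p = 0.00427 and 1.95 ± 0.24, adjusted p = 0.00014). It was at 16.1 ± 5.19 CPM in WT and 60.6 ± 22.4 CPM in Nlrp3-/- M-MDSCs, and at 37.0 ± 12.7 and 151 ± 30.8 CPM in G-MDSCs. Vcam1 is also among the dendritic cell and macrophage markers summed above, and the part of such cells in its values was not tested. Mmp9, a gelatinase (2.22 ± 0.49, adjusted p = 0.0169), and the chemokine Ccl5 (0.96 ± 0.28, adjusted p = 0.0473) were the others in M-MDSCs. Mmp9 is also among the neutrophil markers summed above. It was at 4.89 ± 4.55 CPM in WT and 20.6 ± 8.03 CPM in Nlrp3-/- M-MDSCs. G-MDSCs held 4247 ± 1549 and 6045 ± 692 CPM of Mmp9, and the part of neutrophil RNA in the M-MDSC values was not tested. In G-MDSCs the early gene Ier2 (0.91 ± 0.18, adjusted p = 0.0039) and the lectin receptor Clec4e (0.68 ± 0.18, adjusted p = 0.0189) followed Vcam1. Under the GC correction Vcam1, Mmp9 and Clec4e stayed called and Ccl5 and Ier2 did not. The median log2 fold change of the list was 0.01 in M-MDSCs and 0.37 in G-MDSCs, beside 0.07 and 0.03 over all genes tested. In the test of the difference between the subsets none of the genes of the 3 lists was called.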

How the data were processed

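Spleens were sorted, per the labels and the study's methods, into CD11c- CD11b+ Gr1+ cells split by Ly6C and Ly6G, and libraries were made with QuantSeq, which reads transcripts near their 3′ end. The deposited values are raw counts per gene, made by the authors with HISAT2 2.1.0 on mm10 and HTSeq with strand (edgeR 3.14.0 is also named). The number of amplification cycles took 1 of 2 values that the labels do not tie to libraries.

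Counts were tested with edgeR 4.0.16 in R 4.3.3 (filterByExpr, TMM, quasi-likelihood F test, Benjamini-Hochberg adjustment over all genes tested) on the 8 libraries of each comparison, and on all 16 for the difference between subsets. CPM use TMM factors over all 16 libraries (0.722 to 1.46) and log2 CPM a prior count of 2. GC content and length of the longest GENCODE transcript, matched for 24046 of 24421 symbols, were fitted per library with splines of 4 degrees of freedom. The alternatives were DESeq2 1.42.0, its size factors, library size alone, other filters, an edgeR exact test, all 16 samples in 1 model, the replicate number as a block, and leaving out each library. For the difference between subsets both libraries of a mouse were left out together. The scripts were tested on simulated data. Values after ± are the SD over 4 libraries for levels and the standard error of the edgeR fit for fold changes. Both include differences between libraries. Counts are without molecular identifiers.

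The rule for names took each of the 41 genes called in a comparison, and gave in every library those called by genotype and the 10 called with the smallest p in each subset comparison (15 in all), and per other list and genotype comparison the 3 called with the smallest p. Genes named or given per library outside this rule, such as Tnfaip3, Chuk and Tnfrsf1b, were chosen after their values were seen. The members and lists were chosen with earlier results of these data known. The sample descriptions give the M-MDSC and G-MDSC libraries of a replicate number the same spleen code, and the labels say that each RNA sample came from 1 mouse, so same-numbered libraries of a genotype were taken as 1 mouse. Deviations from the group means correlated between them at 0.10 to 0.40 in WT and 0.01 to 0.38 in Nlrp3-/- mice, and 3 of 4 libraries correlated best with their own mouse in each. The correlations alone do not establish the pairing.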

Additional observations from a re-analysis of the deposited data

Results flagged for a closer look

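In 9 of 164 groups of 4 libraries (41 genes in 4 groups) 1 library lay far from the other 3 by Dixon's criterion, which chance meets in about 1 of 20 groups. In WT G-MDSCs these were Nfkbie at 22.6 CPM in replicate 4 (the others 28.3 to 29.4), Nfkbiz at 940 CPM in replicate 2 (691 to 733), Traf2 at 5.34 CPM in replicate 1 (8.95 to 9.69), Irak4 at 248 CPM in replicate 1 (124 to 134) and Tnfaip2 at 3650 CPM in replicate 3 (2490 to 2570). In Nlrp3-/- M-MDSCs Birc2 was at 43.2 CPM in replicate 2 (23.3 to 26.1), Ikbkg at 4.11 CPM in replicate 4 (10.7 to 11.8) and Cyld at 126 CPM in replicate 4 (93.6 to 97.6). In Nlrp3-/- G-MDSCs Icam1 was at 19.7 CPM in replicate 2 (29.0 to 30.7).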

How the results depend on the processing

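Of 44 calls among the 41 genes, re-run under the alternatives, 761 values kept direction and side of the threshold, 69 kept the direction only and 4 reversed. The 4 came with library size alone: Cflar (-0.04) and Tnip1 (-0.04) in WT, and Irak4 (-0.07) and Tnip1 (-0.13) in Nlrp3-/- mice, for G-MDSCs against M-MDSCs. In M-MDSCs 2 genes were called by genotype, 4 with library size alone, 4 with DESeq2, 4 with the exact test and 1 with GC content and length corrected. Leaving out 1 library gave 0 to 8 in M-MDSCs and 5 to 9 in G-MDSCs, and 16 to 23 and 14 to 19 for the subsets in WT and Nlrp3-/- mice. For the difference between subsets both libraries of 1 mouse were left out at a time, which gave 0. Library size alone gave 25 for the subsets in Nlrp3-/- mice. The replicate block gave 1 by genotype in M-MDSCs and 0 with the GC correction, and in G-MDSCs 5, and 3 with the GC correction. Across genotypes the numbers join different mice: deviations correlated at -0.45 to 0.02 in M-MDSCs and -0.26 to -0.04 in G-MDSCs, and no library correlated best with its own number. Causes were not tested. Depth limits Ripk2 most (down to 1 count in a library), then Traf1 and Traf2 (15) and Chuk (17), and 3 counts were worth up to 1.17 CPM.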
